A study of Mus musculus with 12 samples.

Results

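The genes described here carry sulphate and dicarboxylates across the cell membrane or turn sulphate into its activated form, and they were followed in the small intestine of mice on 2 diets. The set holds 7 genes of the 19937 with a probe set of their own, namely Slc13a1, Slc13a2, Slc13a3, Slc26a1, Slc26a2, Papss1 and Papss2. For each gene the brightest probe set naming that gene alone was to be taken, by its mean over all 12 arrays, and since each of the 7 had exactly 1 such probe set the choice changed nothing. The genes were selected on the measured values of these same arrays, the intensities on both diets and the difference between them, so their differences between the diets are a description and carry no test.

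Affymetrix whole-transcript arrays were hybridised with total RNA from the small intestine of 12 male wild-type FVB mice, 6 per diet. The first group received the low P/S diet, a diet with little polyunsaturated relative to saturated fatty acid, and the second received the control HF diet, HF being the labels' own abbreviation. The labels give an age of 8 weeks and a feeding period of 8 weeks for both groups, and the 6 arrays per diet are described there as biological replicates. The intestinal segment, the hour of dissection, the last meal and the fat content of the low P/S diet are not given in the labels, and neither is pooling of animals.

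Sulphate is taken up from the gut lumen and from the renal filtrate by sodium-coupled carriers of the Slc13 family and is exchanged across other membranes by carriers of the Slc26 family. Inside the cell the Papss enzymes join sulphate to ATP and phosphorylate the product, which gives PAPS, the donor used by all sulphotransferases. In the intestine sulphation is used for mucins, for proteoglycans and for the conjugation of steroids, bile acids and foreign compounds. The Slc13 family also holds carriers for succinate, citrate and other intermediates of the citric acid cycle.

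Intensities are the deposited probe set values on a linear scale, and each difference is a log2 value, low P/S minus control, with ± as the standard error from limma (n = 6 arrays per diet). A gene counts as past the threshold at a Benjamini-Hochberg adjusted p under 0.05 in the fit over all 11962 genes that reached the dim limit, a geometric mean intensity of 85.6. In that fit 25.7% of the genes passed, 17.8% as higher and 7.87% as lower on the low P/S diet. With quantile normalization the numbers were 1772 higher and 1543 lower, against 2132 higher and 942 lower as deposited. The array medians lay between 91.9 and 99.5, and precision is limited by having 6 arrays per diet.

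Of the 7 genes, 5 reached the dim limit, and 2, Slc13a3 and Slc26a1, did not. All 5 tested genes had lower values on the low P/S diet and were past the threshold, beside the 7.87% of all tested genes that were lower and past it. For 4 of them every low P/S array lay below every control array, beside 3.9% of all tested genes, while 6.86% were separated the other way. Because the genes were picked with these differences in view, nothing is read from these counts. The tissue is a bulk sample, in which fewer cells of a type and less RNA per cell cannot be told apart.

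**Figure D1:**
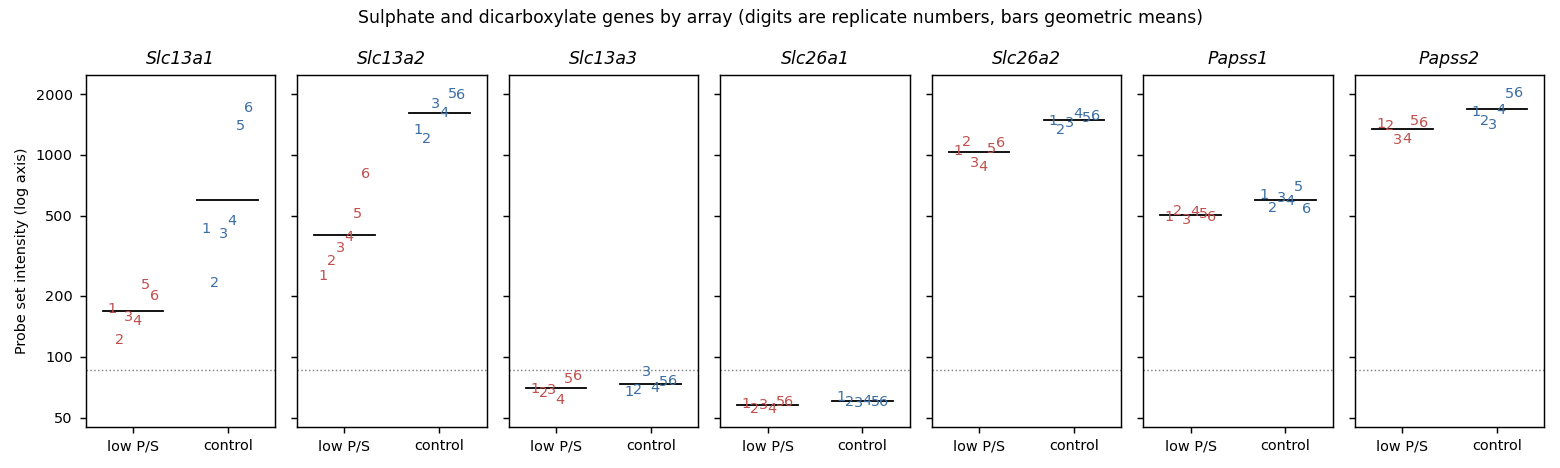
Probe set intensity (log axis) of the 7 genes on each array, with low P/S arrays on the left and control arrays on the right of each panel. Digits are the replicate numbers, bars are geometric means and the dotted line is the dim limit of 85.6. Slc13a1 and Slc13a2 show the widest gaps between the bars, and Slc13a3 and Slc26a1 lie under the line on both diets.

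Slc13a2 encodes a sodium-dicarboxylate cotransporter of the apical membrane that carries succinate and citrate. Its intensity (probe set 10388834) ran over a lowest, median and highest value of 251, 370.4 and 806 on the low P/S diet, against 1196, 1698 and 1999 on the control diet. The groups lay far apart, since the highest low P/S array, number 6, stayed under the lowest control array, number 2. The geometric means were 402 and 1621, a difference of -2.01 ± 0.22 or a level at 24.8% of control. The low P/S arrays spread more, with an SD of 0.60 on the log2 scale, against 0.30 on the control diet, and whether the spreads differ was not tested. Under all 23 alternative settings the difference lay between -2.21 and -1.87.

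The promoter windows of RefSeq, build GRCm38.p6, cover 250 bases before to 50 bases after a transcript start. That of Slc13a2 is shown because this gene had the largest difference of the set, and those at the 2 listed starts of Papss2, which makes PAPS, are shown to set a pair of starts of a single gene beside it. Capitals mark matches to the motifs searched on both strands, here the letters TATATAA of a TATA box (with the overlapping match on the other strand) and AGATAA of a GATA site.
Slc13a2, chr11:78422185-78422484, minus strand: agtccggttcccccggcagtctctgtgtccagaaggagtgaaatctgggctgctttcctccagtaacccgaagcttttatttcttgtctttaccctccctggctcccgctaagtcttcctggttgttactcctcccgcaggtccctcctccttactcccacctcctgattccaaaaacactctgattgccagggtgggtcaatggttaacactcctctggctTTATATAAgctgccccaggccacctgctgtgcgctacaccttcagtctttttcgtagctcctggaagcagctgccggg
Papss2, first start, chr19:32595465-32595764, plus strand: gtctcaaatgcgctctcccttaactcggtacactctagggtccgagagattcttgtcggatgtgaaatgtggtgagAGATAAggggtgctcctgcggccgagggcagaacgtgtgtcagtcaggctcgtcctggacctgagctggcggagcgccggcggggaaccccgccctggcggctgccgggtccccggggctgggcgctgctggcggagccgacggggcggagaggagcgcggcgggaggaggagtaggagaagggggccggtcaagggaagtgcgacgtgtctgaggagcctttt
Papss2, second start, chr19:32619755-32620054, plus strand: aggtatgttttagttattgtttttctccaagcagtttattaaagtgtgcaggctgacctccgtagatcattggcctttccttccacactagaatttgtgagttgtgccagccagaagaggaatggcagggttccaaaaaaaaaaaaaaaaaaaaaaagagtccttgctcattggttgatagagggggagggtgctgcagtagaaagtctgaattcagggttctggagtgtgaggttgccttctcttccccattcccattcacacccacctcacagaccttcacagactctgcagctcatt

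The Slc13a2 window held TATATAA with its first base at position -27 from the start, and 3.24% of all 32851 promoter windows of this length held these letters. It held none of the other letters searched, which were GTTAAT for HNF1 (in 7.1% of windows), CAAAGTCCA for HNF4 (0.475%), TTTATG for CDX2 (11.9%), AGATAA for GATA factors (11.2%), the nuclear receptor repeats of AGGTCA with 1 base (0.0396%) or 3 bases (0.00609%) between, the E-box CACGTG (7.15%) and the D-box TTATGTAA (0.938%). The first Papss2 window held AGATAA at position -174 and was richer in G and C, at 66.3%, against 54.3% for Slc13a2 and 44.3% for the second Papss2 start. The TATA box was added to the search after the windows were read, and the E-box and D-box after the array values were seen. No window was available for Slc13a1. Among windows not printed, CACGTG stood at -154 in Slc13a3 and at -47 at the first start of Slc26a1. GATA letters stood at -177 at the second start of Slc26a1 and at -237 and -63 at the second start of Papss1. A match is a run of letters only, and the labels do not say which start the Papss2 probe set reads.

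Slc13a1 encodes the sodium-sulphate cotransporter of the apical membrane, which takes up sulphate in intestine and kidney. Its intensity (probe set 10543411) had a lowest, median and highest value of 121, 165 and 227 on the low P/S diet, against 232, 450.1 and 1713 on the control diet. The groups did not overlap, but they touched, since low P/S array 5 lay just under control array 2. The geometric means were 168 and 597, a difference of -1.83 ± 0.38 or a level at 28.1% of control.

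Control arrays 5 and 6, at 1396 and 1713, stood far above the other control arrays, which lay between 232 and 471. The SD on the log2 scale was accordingly 0.32 on the low P/S diet and 1.13 on the control diet, and the highest array was 1.88 times the lowest on the low P/S diet and 7.39 times on the control diet. Leaving out control arrays 5 and 6 was decided once the values were seen, and the difference then was -1.15 ± 0.19, which is 2.21-fold lower in place of 3.56-fold. Without control arrays 1 and 2 it was -2.29 ± 0.34, or 4.91-fold lower. Leaving out single arrays gave between -2.11 and -1.53.

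Slc13a3, a second sodium-dicarboxylate cotransporter known mainly from kidney and brain, stayed under the dim limit. Its intensities ran from 61.2 to 80.2 with a median of 69.1 on the low P/S diet and from 66.6 to 83.7 with a median of 72.4 on the control diet. The groups overlapped, with a difference of -0.05 ± 0.07. Slc26a1, a sulphate exchanger known from the basolateral membrane of liver, kidney and intestine, was dimmer still. It ran from 54.8 to 59.6 with a median of 58.3 on the low P/S diet and from 58.7 to 63.0 with a median of 59.8 on the control diet, again overlapping, with a difference of -0.06 ± 0.04. Without the dim filter neither gene was past the threshold. At such intensities the absence of a diet difference is not shown.

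Slc26a2 encodes a sulphate exchanger found in many tissues and needed for the sulphation of cartilage proteoglycans. Its intensity (probe set 10459183) had a lowest, median and highest value of 876, 1054 and 1159 on the low P/S diet, against 1327, 1496 and 1592 on the control diet. Every low P/S array lay below every control array with a clear gap between the groups. The geometric means of 1028 and 1484 gave a difference of -0.53 ± 0.07, or 1.44-fold lower, and it lay between -0.62 and -0.48 under all 23 alternatives.

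Papss1 and Papss2 encode the bifunctional enzymes, each with an ATP sulphurylase and an APS kinase activity, that make PAPS. Papss2 (probe set 10462507) had a lowest, median and highest intensity of 1183, 1408 and 1479 on the low P/S diet, against 1409, 1654 and 2019 on the control diet. The groups overlapped, since low P/S array 5 exceeded control arrays 2 and 3. The difference was -0.32 ± 0.09, or 1.25-fold lower, from geometric means of 1349 and 1685. Without control arrays 5 and 6, the 2 highest for this gene as for Slc13a1, it was -0.20 ± 0.08 and no longer past the threshold, and 4 of the 7 genes then were.

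Papss1 (probe set 10496110) had a lowest, median and highest intensity of 473.5, 501 and 529 on the low P/S diet, against 539.9, 601 and 697 on the control diet. The groups did not overlap, though the gap between low P/S array 2 and control array 6 was small. The geometric means of 503 and 599.8 gave a difference of -0.25 ± 0.06, or 1.19-fold lower. Among the 5 tested genes the sizes fell into a pair of carriers at 24.8% and 28.1% of control and a sulphate exchanger and 2 enzymes at between 69.3% and 83.8% of control. No difference between genes of the set was tested.

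Variation among arrays of the same diet does not use the difference between diets and was examined for 4 pairs of genes in each diet, 8 tests in all. Over the 6 control arrays Slc13a1 and Slc13a2 had Pearson's r = 0.86 (exact permutation p = 0.0472, adjusted p = 0.141) and Spearman's rho = 0.77 (exact permutation p = 0.103). Over the 6 low P/S arrays r was 0.63 (exact permutation p = 0.181) and rho 0.54 (exact permutation p = 0.297). Without the 2 arrays farthest from the median of Slc13a1, r was 0.71 over the 4 control arrays left and 0.64 over the 4 low P/S arrays left. Arrays 5 and 6 held the 2 highest values of both genes on both diets.

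Slc26a2 and Papss2, a sulphate carrier and a PAPS enzyme, had r = 0.87 on the low P/S diet (exact permutation p = 0.0528, rho = 0.54) and r = 0.68 on the control diet (exact permutation p = 0.138, rho = 0.77). The low P/S value rested on arrays 3 and 4, without which it was -0.45, while the control value was 0.94 without arrays 2 and 4. Papss1 and Papss2 had r = 0.17 on the low P/S diet (exact permutation p = 0.739, rho = 0.14) and r = 0.20 on the control diet (exact permutation p = 0.674, rho = -0.14). Without the 2 arrays farthest from the median of Papss1 these became -0.79 and 0.29.

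Slc13a1 and the dim Slc26a1 had r = 0.90 on the low P/S diet (exact permutation p = 0.0125, adjusted p = 0.1), and their ranks were the same on all 6 arrays (exact permutation p = 0.00278 for rho, adjusted p = 0.0222). The highest of these Slc26a1 values was only 1.09 times the lowest. On the control diet r was -0.17 (exact permutation p = 0.749, rho = -0.14), and 0.23 without arrays 5 and 6. By Pearson's r, 2 of the 8 exact permutation p values were under 0.05 before adjustment and none after it, where the smallest p that 6 arrays can give is 0.00139.

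**Figure D2:**
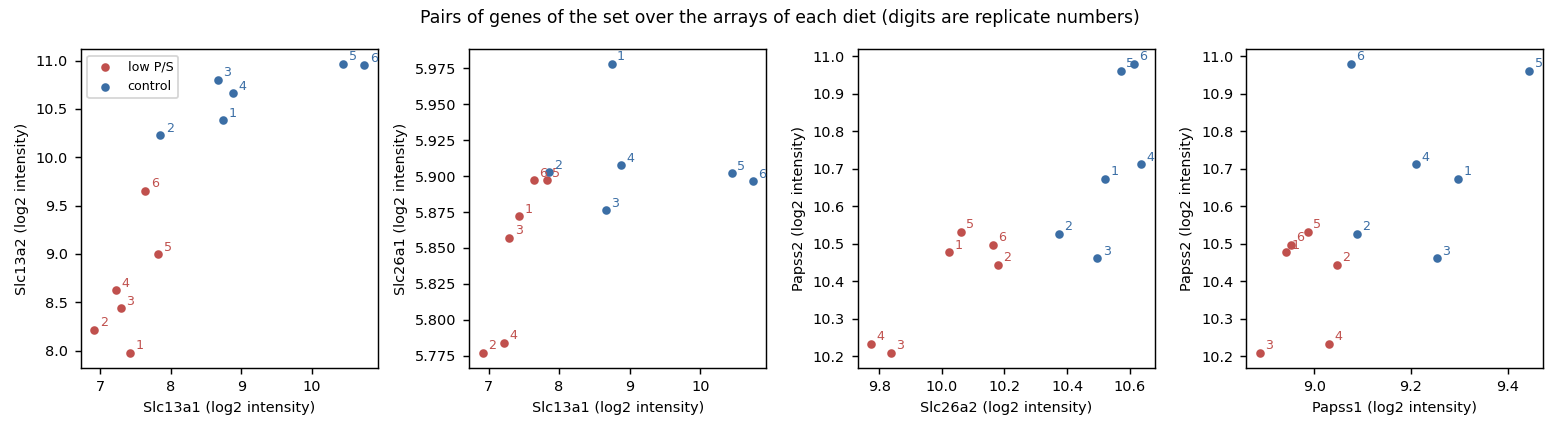
Log2 intensities of 4 pairs of genes, a point per array, with low P/S arrays in red, control arrays in blue and replicate numbers beside the points. In the first panel arrays 5 and 6 lie at the upper right of each diet, and in the second the vertical axis covers only the narrow range of Slc26a1.

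The tested genes most like Slc13a2 were taken by the correlation of deviations from the diet mean over the 12 arrays, as a description of the highest among 11961 genes. They were Prr15 (r = 0.93), the cytochrome P450 gene Cyp2u1 (0.927), Slc5a4a of the sodium-glucose cotransporter family (0.926), the kinase gene Tesk2 (0.924) and the receptor-like gene Ptk7 (0.919). Of these, 4 were lower on the low P/S diet and past the threshold in limma, led by Slc5a4a with geometric means of 337 and 809 (-1.26 ± 0.20, adjusted p = 0.000412), while Ptk7 had a difference of 0.01 ± 0.05 (adjusted p = 0.879). For Slc13a1 they were Rtkn (0.917), the sodium-calcium exchanger gene Slc8a2 (0.917), 1110006O24Rik (0.901), the clock gene Per2 (0.895) and Fam102a (0.889). Of these Per2 (-0.59 ± 0.12, adjusted p = 0.00297) and Fam102a (-0.77 ± 0.10, adjusted p = 7.24e-05) were past the threshold in limma, both lower on the low P/S diet.

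Slc8a2, at 87.8 and 88.7, lay close to the dim limit. Within the diets, likeness to Slc13a1 differed from gene to gene. For Rtkn r was 0.91 on the low P/S arrays and 0.93 on the control arrays, for Slc8a2 0.72 and 0.99, for 1110006O24Rik 0.41 and 0.96, for Per2 0.42 and 0.97, and for Fam102a 0.22 and 0.97. The other tested genes of the set were looked up after the values were seen. Slc13a2 stood 741st in likeness to Slc13a1 (r = 0.52), Slc26a2 1712th (r = 0.37) and Papss1 3288th (r = 0.17). Papss2 stood 26th (r = 0.82), with r = 0.49 on the low P/S arrays and 0.93 on the control arrays.

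The sixth gene in likeness to Slc13a2, named after its value was seen, was Dbp, a transcription factor gene driven by the circadian clock (r = 0.91). Arntl, an activator of the clock and likewise named after its value was seen, ran opposite to Slc13a2 (r = -0.90). Dbp had geometric means of 164 on the low P/S diet and 673 on the control diet (-2.04 ± 0.25, limma adjusted p = 4.9e-05), and Arntl had 320 and 148 (1.11 ± 0.23, adjusted p = 0.00255). Arrays 5 and 6 held the 2 highest Dbp values on both diets, as they did for Slc13a1 and Slc13a2. The part of the time of dissection in these differences was not tested.

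**Figure D3:**
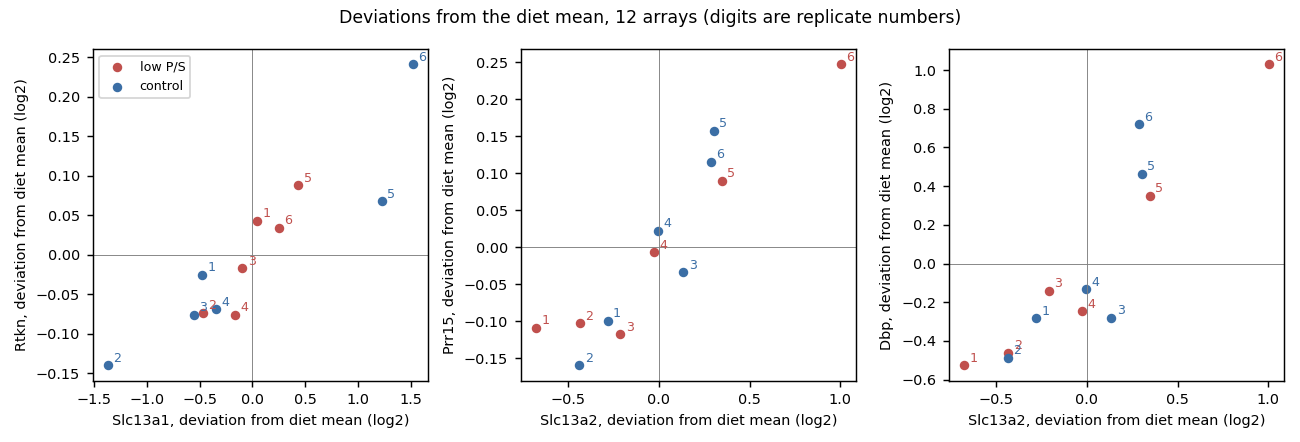
Deviation of each array from its diet mean on the log2 scale, for Rtkn against Slc13a1 and for Prr15 and Dbp against Slc13a2. Red points are low P/S arrays, blue points control arrays and digits replicate numbers. In each panel the arrays of both diets lie along a common line, with r between 0.91 and 0.93 over 12 arrays.

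Markers of other cell types and segments are given beside these values, and their part in the differences was not tested. Every count of markers that rose or fell stands beside the 25.7% of all tested genes that passed, 17.8% as higher and 7.87% as lower. The lists are short, and nothing about amounts of cells is read from these counts. Of 8 enterocyte markers 2 fell, Vil1 and Sis, and none rose, with summed intensities of 50769 to 58774 on the low P/S diet and 51672 to 69115 on the control diet. Fabp2, at 9724 and 9793, and Alpi, at 4102 and 4069, were bright on both diets, so the defining markers of small intestinal enterocytes were present. The summed distal markers did not overlap between the diets, at 6495 to 8174 on the low P/S diet and 9844 to 12288 on the control diet, but this rested on Cubn, at 979 and 4469. Without Cubn, left out after its values were seen, the sums overlapped, at 5545 to 6710 on the low P/S diet and 5469 to 7111 on the control diet. Of the 5 tested distal markers Cubn and Naaladl1 fell, Slc10a2 rose, and Fabp6 was dim.

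Of 7 tested proximal markers 4 rose and 1, Lct, fell, with sums of 12374 to 15221 on the low P/S diet and 13025 to 17072 on the control diet. These sums include Lct, bright at 2612 on the low P/S diet and 5033 on the control diet. The mean log2 level of the proximal list differed by 0.08, higher on the low P/S diet. All 4 tested macrophage markers rose (sums 767 to 1013 on the low P/S diet, 614 to 736 on the control diet), as did 2 of 4 goblet markers (14972 to 18092 and 10859.9 to 16041) and the 1 tested of 3 B and plasma cell markers (1795 to 2604 and 1113 to 1546), Jchain. The other B cell markers, Cd79a and Ms4a1, were dim by their mean, but low P/S array 3 stood apart in both, at 193 and 168, while the other low P/S arrays reached at most 65.8 and 48.4. Of 3 tested T cell markers 2 fell (493 to 725 and 659.96 to 809). No smooth muscle (0 of 6 tested), colon (0 of 3), adipose (0 of 3), exocrine pancreas (0 of 2) or kidney marker (0 of 2) passed in limma. Umod, a defining marker of kidney, was dim on both diets, at 65.1 and 68.1.

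**Figure D4:**
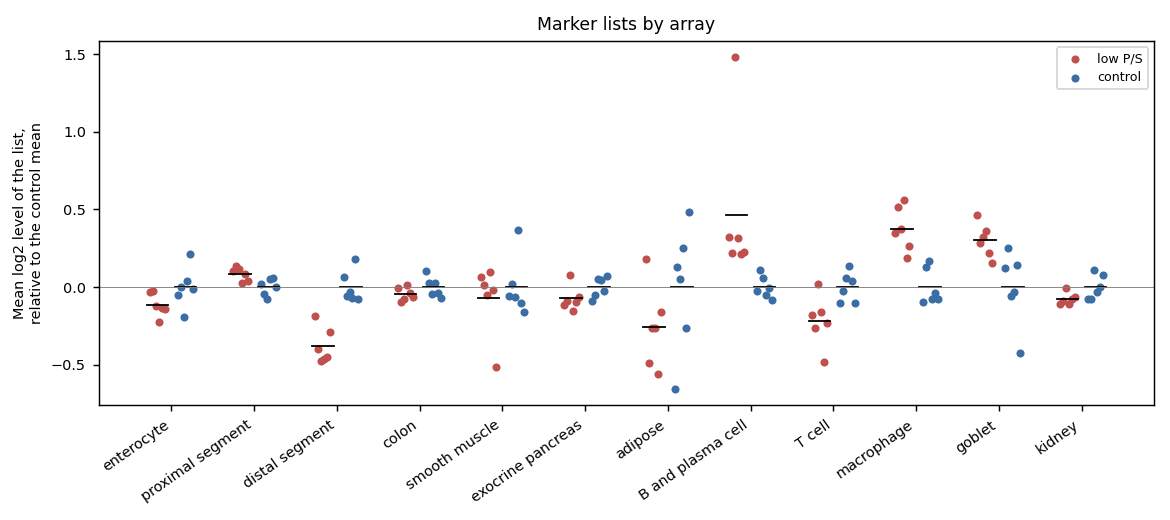
Mean log2 level of each marker list on each array, relative to the mean of the control arrays, with low P/S arrays in red to the left of control arrays in blue. Bars are group means over 6 arrays. The distal, macrophage and B and plasma cell lists show groups that do not overlap, the distal list through Cubn, without which its groups overlap.

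Genes of the same pathways that the set leaves out were followed in 9 lists with 144 symbols, of which 129 had a probe set and 98 were bright enough to test. Together 19 rose and 9 fell. These lists are described by their counts and medians beside 25.7% of all tested genes passing and a median of 0.02 over all tested genes.

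Of the other Slc13 and Slc26 genes 4 of 11 were tested (median -0.12) and none passed in limma, though 3 had an unadjusted p under 0.05. This count was not stable, since 11 of the 23 alternatives called between 1 and 3 of these genes, and quantile normalization, array weights and a trended prior each called 1 lower. The dim ones included Slc13a5, the citrate carrier known mainly from liver, at 63.5 on the low P/S diet, against 68.7 on the control diet. Slc13a4, a sulphate carrier known from placenta, was dim too, at 79.8, against 80.6. Slc26a3, the chloride-bicarbonate exchanger of the gut surface, had geometric means of 2036 and 1803 (0.17 ± 0.07, adjusted p = 0.0892). Slc26a6, an apical anion exchanger that also carries oxalate and sulphate, had 1263 and 1383 (-0.13 ± 0.05, adjusted p = 0.0729).

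Use of PAPS was followed in 3 lists. Slc35b3, which carries PAPS into the Golgi, rose to 486 on the low P/S diet, against 398 on the control diet (0.29 ± 0.07, adjusted p = 0.00769), while its relative Slc35b2 had a difference of -0.02 ± 0.05 (adjusted p = 0.802). The Slc35b3 call ended without control arrays 5 and 6 (adjusted p = 0.0503). It was the only call among the 4 tested genes of its list (25.0%, median -0.005). Of 4 tested cytosolic sulphotransferases, which conjugate small molecules, Sult1b1 fell 1.17-fold to 1790 on the low P/S diet, against 2102 on the control diet (adjusted p = 0.00847). Sult2b1, which sulphates sterols, fell 1.19-fold to 931, against 1108 (adjusted p = 0.0159), but did not pass once control arrays 5 and 6 were left out (adjusted p = 0.108).

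Of 20 tested Golgi sulphotransferases, which sulphate sugar chains and tyrosines, none passed in limma, and 1 had an unadjusted p under 0.05. Their differences ran from -0.13 to 0.09 with a median of -0.02, and 2 passed as lower without control arrays 1 and 2. Among 11 tested sulphatases and their activators, which free sulphate again, the lysosomal arylsulphatase gene Arsg rose 1.33-fold to 194 on the low P/S diet, against 145 on the control diet (0.42 ± 0.09, adjusted p = 0.0025), with no overlap between the groups. The other 10 did not pass, so that 9.09% of the list was past the threshold, with a median of 0.025.

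Sulphate also arises inside cells from cysteine and from sulphide, and of 14 tested genes of this route 5 rose and 1 fell (42.9% past the threshold, median 0.06). Got2 and Got1, transaminases that also act on cysteine sulphinate, had geometric means of 976 and 1879 on the low P/S diet, against 622 and 1373 on the control diet (0.65 ± 0.10, adjusted p = 0.000385, and 0.45 ± 0.12, adjusted p = 0.0094). Ethe1, the mitochondrial persulphide dioxygenase, rose 1.22-fold to 176 on the low P/S diet, against 144 (adjusted p = 0.00301). Sqor, which oxidises sulphide in mitochondria, rose 1.26-fold to 202, against 161 (adjusted p = 0.0115), but did not pass once control arrays 5 and 6 were left out (adjusted p = 0.0653).

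The other calls, named after their values were seen, were Mocs1 of molybdenum cofactor synthesis, which rose (0.26 ± 0.07, adjusted p = 0.013, or 0.0721 without control arrays 5 and 6), and Cbs, which opens the transsulphuration route, which fell (-0.16 ± 0.05, adjusted p = 0.0192). Cbs lay close to the dim limit, at 96.3 on the low P/S diet and 107.5 on the control diet. A stricter dim filter, at the 60th percentile, left it out. Suox, the sulphite oxidase that makes sulphate, had 93.6 and 84.1 (0.15 ± 0.06, adjusted p = 0.0613). Cdo1, the cysteine dioxygenase, had 176 and 185 (-0.07 ± 0.10, adjusted p = 0.619). Without control arrays 5 and 6 the count of higher genes was 3.

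Dicarboxylates and citrate are intermediates of the citric acid cycle. Of 23 tested genes in a list of the cycle, related cytosolic enzymes and mitochondrial carriers, 11 rose and 1 fell (52.2% past the threshold, median 0.15). The cytosolic enzymes in it were Acly, Aco1, Idh1 and Mdh1. Acly (limma adjusted p = 0.0257) and Idh1 (adjusted p = 0.0459) were among the genes that rose. Slc25a1, the mitochondrial citrate carrier, rose 1.47-fold to 1696 on the low P/S diet, against 1153 on the control diet (0.56 ± 0.09, adjusted p = 0.000436). Slc25a11, the oxoglutarate carrier, rose 1.31-fold to 1323, against 1007 (adjusted p = 0.000748). Fh1, the fumarase gene, rose 1.29-fold to 1009, against 783 (adjusted p = 0.000385), and Idh3b, an isocitrate dehydrogenase subunit, 1.25-fold to 2862, against 2295 (adjusted p = 0.000704). The groups did not overlap for any of these 4 genes.

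The gene that fell, named after its value was seen, was Ogdh, the oxoglutarate dehydrogenase gene, at 3338 on the low P/S diet and 4175 on the control diet (-0.32 ± 0.07, adjusted p = 0.00319). Slc25a10, the mitochondrial dicarboxylate carrier, had 1236 and 1116 (0.15 ± 0.08, adjusted p = 0.201).

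Slc13 carriers use the sodium gradient of the sodium pump, and apical transporters are held by scaffold proteins. Of 6 tested genes of this kind 3 fell and none rose. Ezr, which links membrane proteins to actin, fell 1.55-fold to 1643 on the low P/S diet, against 2551 on the control diet (-0.64 ± 0.06, adjusted p = 3.64e-06). Slc9a3r1, a scaffold of apical transporters, fell 1.35-fold to 2675, against 3607 (adjusted p = 0.000385), and both genes separated on all arrays. Atp1b1, the beta subunit gene of the sodium pump, fell 1.36-fold to 2723, against 3716 (-0.45 ± 0.09, adjusted p = 0.00273), and stood eighth in likeness to Slc13a1 (r = 0.85 over 12 arrays).

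Of 12 tested transcription factors of intestinal transporter genes 1 rose and 2 fell (25.0% past the threshold, median -0.10), a share near the 25.7% of all tested genes. With quantile normalization none rose and 6 fell. Nr3c1, the glucocorticoid receptor gene, fell 1.15-fold to 803 on the low P/S diet, against 924 on the control diet (-0.20 ± 0.05, adjusted p = 0.0086), with no overlap. Cdx2, an intestinal identity factor, rose 1.12-fold to 567, against 508 (adjusted p = 0.0228), but not with quantile normalization (adjusted p = 0.266), without low P/S array 5 or without control arrays 1 and 2. Vdr, the vitamin D receptor gene, fell 1.14-fold to 1548, against 1762 (-0.19 ± 0.07, adjusted p = 0.0469), and this call ended in 13 of 23 alternatives, with a highest adjusted p of 0.198. Leaving out low P/S array 1, 3, 4 or 5, or control array 1, 4, 5 or 6, alone ended it.

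**Figure D5:**
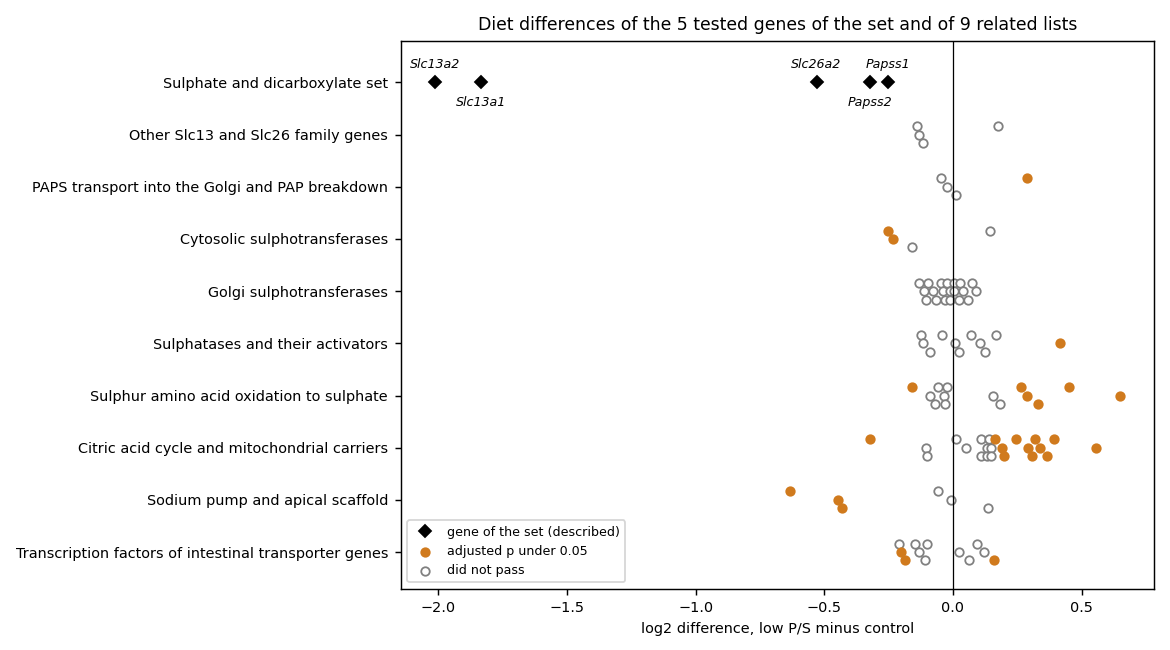
Log2 difference, low P/S minus control, of the 5 tested genes of the set (diamonds) and of each tested gene of the 9 related lists (circles, filled where the limma adjusted p was under 0.05). Slc13a2 and Slc13a1, at -2.01 and -1.83, lie farther from 0 than any gene of the lists, whose range was -0.64 to 0.65. The genes of the set were chosen with these differences known, so nothing is read from this order.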

How the data were processed

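Values were the deposited intensity per probe set and array on a linear scale; summarization and normalization by the authors are not given in the sources used here, and per the labels' protocols 500 ng of total RNA were labelled for sense targets. Of 34760 probe sets 21640 named 1 gene in GEO's platform annotation, 1321 several and 11799 none. The brightest per gene gave 19937 genes, and those under the 40th percentile of mean level (7975) were left out as dim. The diets were compared on log2 values with limma 3.58.1 (lmFit, eBayes, two-sided) in R 4.3.3, with Benjamini-Hochberg adjustment over 11962 genes, and tested on simulated data. Correlations used exact permutations (Python 3.11.15, NumPy 2.4.6, SciPy 1.17.1), figures matplotlib 3.10.9.

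The genes and lists were chosen with earlier results of these data known. Named genes were the 7, up to 4 genes of smallest p among those past the threshold in each list, and the 5 most like Slc13a1 and Slc13a2. Others were named outside this rule with their values known, and some are marked so where they appear. Arntl, Slc26a3, Slc26a6, Slc13a4, Slc13a5, Slc35b2, Suox, Cdo1 and Slc25a10 are among them. Alternatives were other normalizations, filters, probe set means, a pseudocount of 16, array weights, a trended prior, a replicate block and arrays left out. A planned comparison of protein sequences was not made.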

Additional observations from a re-analysis of the deposited data

Results flagged for a closer look

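Slc26a1 on the control diet had 1 array far from the others. Control array 1 stood at an intensity of 63.0 while the other 5 control arrays lay between 58.7 and 60.03. On the log2 scale the gap to the nearest array was 0.692 of the whole range, above the limit set for 6 arrays by Dixon's test. The gene is under the dim limit on both diets. It was the only such case among 50 groups of 6 arrays checked over 25 genes, where chance alone flags about 1 in 20 groups.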

How the results depend on the processing

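The 5 tested genes of the set were lower and past the threshold under every alternative except leaving out control arrays 5 and 6, an alternative chosen after seeing the data, which left 4. The alternatives reuse the arrays on which the genes were chosen, so nothing is read from these counts either. All 7 kept the sign of their difference. Over all genes 3074 were called, between 2409 and 3325 without single arrays, and 3530 (2454 higher, 1076 lower) with the replicate number as a block, under which 5 genes of the set and 24 higher and 11 lower genes of the related lists were called. The numbers were not treated as a pairing, since deviations of same-numbered arrays over all tested genes correlated between -0.11 and 0.42. Low P/S arrays 3 and 6 alone correlated best with their own number. For Slc13a1 and Slc13a2 the block left the differences unchanged but narrowed the standard errors, to 0.23 from 0.38 and to 0.12 from 0.22. For Papss2 the standard error narrowed too, to 0.06 from 0.09, while for Slc26a2 and Papss1 it stayed at 0.07 and 0.06. Whether values varied with the replicate number was not tested, and the labels do not give the meaning of that number. Without control arrays 5 and 6 the call count was 1894, with 1188 higher and 706 lower. Without control arrays 1 and 2 it was 3855, with 2718 higher and 1137 lower. Quantile normalization called 1543 genes lower, and 18 genes of the related lists lower in place of 9. Without the 2 arrays farthest from the median, r turned to -0.45 for Slc26a2 and Papss2 and to -0.79 for Papss1 and Papss2 on the low P/S diet, and to 0.23 for Slc13a1 and Slc26a1 on the control diet, in each case over 4 arrays. With the replicate block 2 of the other Slc13 and Slc26 genes were called lower and 1 higher. Among the list genes named in the text the sign of the difference changed for Slc35b2 (-0.06 to 0.005), Cdo1 (-0.13 to 0.001) and Slc13a4 (-0.05 to 0.02) alone, none of which passed in any alternative that tested it. The causes were not tested. Signal near the dim limit limits what can be said of Slc13a3 and Slc26a1.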
